A study of Mus musculus with 11 samples.

Results

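The brush border is the carpet of microvilli on the apical face of intestinal epithelial cells, and 10 genes that build it were examined in organoids of the mouse colon, cultures of epithelium embedded in Matrigel. The set was chosen by gene name: Vil1, Pls1, Eps8, Ezr, Myo1a, Cdhr2, Cdhr5, Ush1c, Anks4b and Myo7b. Each was found once among the 47131 genes of the deposited count table, and all 10 passed the filter on low counts. For the 6 NAP libraries, organoids were kept for 48 h with NAP at 10 pM, an agent that the labels name only by these letters. The 5 control libraries came from organoids that one label field says received PBS as vehicle and another says had no treatment. The tissue donors of both groups were C57BL/6J females, 6 to 8 weeks old, and every library carries batch label 1. The libraries are numbered as biological replicates with no animal or culture named, so the p-values describe the spread between these libraries, part of which may be technical.

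Each microvillus holds a bundle of parallel actin filaments. Villin (Vil1) and plastin-1 (Pls1) bundle the filaments, EPS8 sits at their tips, and ezrin (Ezr) and myosin-1a (Myo1a) tie the bundle to the plasma membrane. Neighbouring microvilli are held together at their tips by the cadherins CDHR2 and CDHR5, whose tails are anchored by the scaffold proteins harmonin (Ush1c) and ANKS4B and by the motor myosin-7b (Myo7b). In the intestine the brush border is best developed on absorptive cells, and these genes are known for rising as cells leave the crypt.

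Library totals ranged from 16546263 to 21947414 counts, and the members were well covered, from 755 counts for Anks4b in its lowest library to 29103 for Cdhr2 in its highest. At 755 counts the counting error is 3.64%, below every spread between libraries given here. Epithelial markers were abundant in both groups, with 10400 to 13245 CPM for a list of 10 in NAP libraries and 9189 to 19134 CPM in controls (CPM, a count relative to the library total after TMM scaling). Markers of fibroblasts and muscle summed to 8.54 to 59.1 CPM in NAP libraries and 5.07 to 35.3 CPM in controls, and those of immune cells to 10.1 to 24.6 CPM in NAP libraries and 6.64 to 15 CPM in controls. The controls stood apart from each other. A list of 20 absorptive colonocyte markers summed to 12803 to 19572 CPM in NAP libraries, against 28517 and 27518 CPM in controls 2 and 5, 10043 CPM in control 3 and 6060 and 4780 CPM in controls 1 and 4. A list of 16 stem cell markers ran the other way, at 1150 to 1662 CPM in NAP libraries, 898 and 992 CPM in controls 2 and 5, 1742 CPM in control 3 and 2522 and 2927 CPM in controls 1 and 4. Controls 2 and 5 also had more genes detected, 27218 and 25725, against 19828 to 22390 in the other libraries of both groups, and the lowest TMM factors, 0.855 and 0.848. The part of this in the results was not tested. Member and pair results that rest on controls 1 and 4 or 2 and 5 are given with and without them. In bulk RNA, fewer cells of a type and less RNA per cell cannot be told apart.

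Eps8, Pls1 and Anks4b were higher after NAP, and no member was lower by edgeR, DESeq2 or an unadjusted p below 0.05. These 3 of 10 members passed when p-values of the edgeR quasi-likelihood test were adjusted over all 14840 tested genes at a threshold of 0.05. Of the tested genes, 1.05% were called higher, 1.07% lower and 2.12% in either direction. An unadjusted edgeR p below 0.05 was held by 3495 of the 14840. DESeq2 called the same 3 members higher, and 11.6% of all tested genes in either direction, 856 higher and 865 lower. Ezr, Myo7b, Vil1, Myo1a and Cdhr2 had positive log2 fold changes and Cdhr5 and Ush1c negative ones, none past the test. The median log2 fold change of the 10 members was 0.38, against −0.07 over all tested genes, and 8 of 10 members were positive against 44.7% of tested genes. The members were chosen with earlier results of these data known, so these counts are a description.

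**Figure D1:**
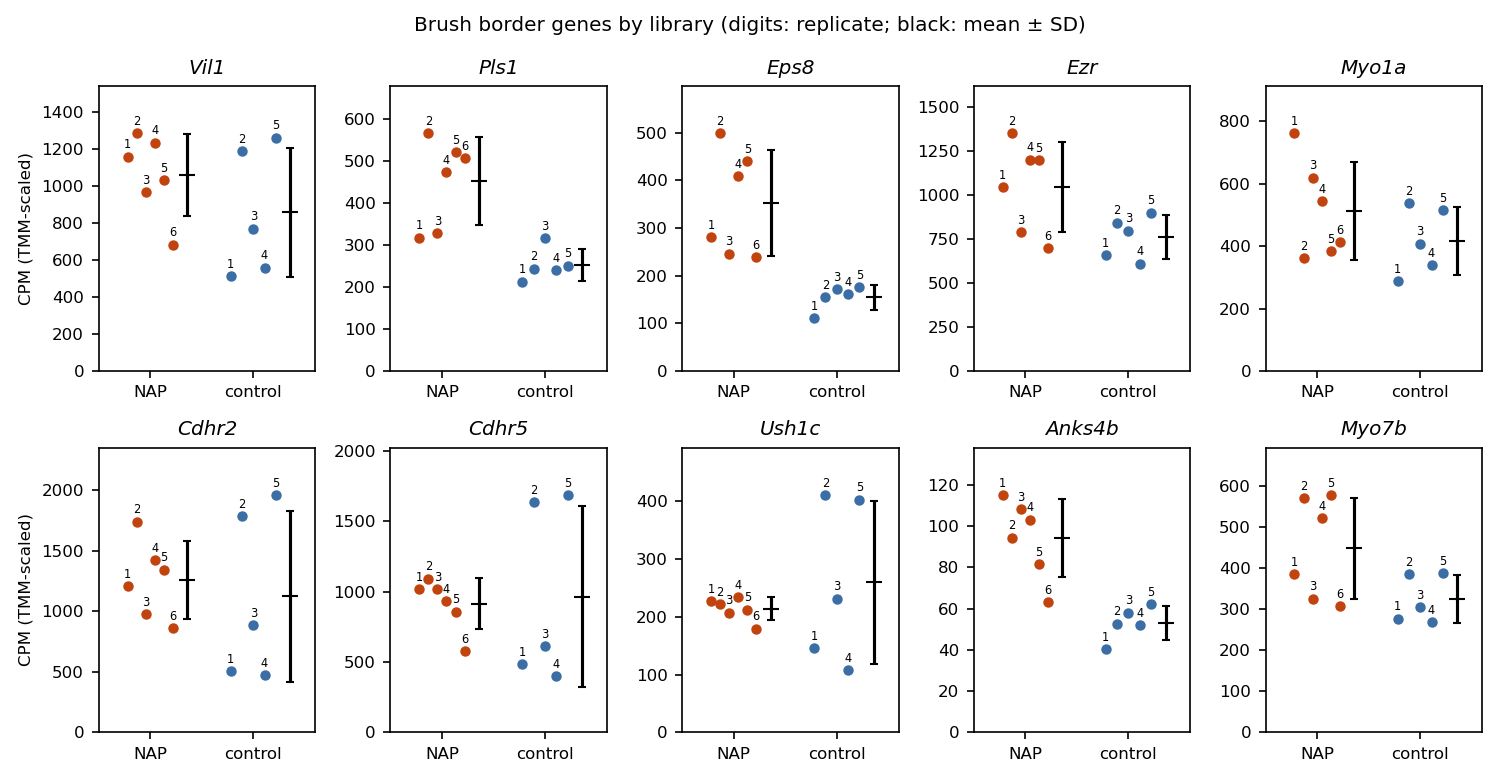
Level of each brush border gene in TMM-scaled CPM (y axes, starting at 0) in the 6 NAP and 5 control libraries, with the replicate number above each point and the mean ± SD in black. For Eps8, Pls1 and Anks4b every NAP library lies above every control, while controls 2 and 5 lie at the top and controls 1 and 4 at the bottom for Cdhr2, Cdhr5 and Ush1c.

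Promoter sequence was looked up for the members in RefSeq promoters of GRCm38.p6, an older build than the GRCm39 of the count table, and was found for 8 of 10. Eps8 and Myo7b had no entry, so the motif counts leave them out. Each window runs from 250 bases before to 50 after the annotated start. The promoters of Pls1 and Anks4b are shown because these genes rose, and that of Cdhr5 because it spread most in controls and holds a match. Capitals mark the match, in Cdhr5 alone of the 3, to TTTATG, a CDX-type motif, which reads CATAAA on the gene's strand. The windows are chr9:95845230-95845529 on the minus strand for Pls1, chr7:120173608-120173907 on the plus strand for Anks4b and chr7:141276737-141277036 on the minus strand for Cdhr5.
Pls1: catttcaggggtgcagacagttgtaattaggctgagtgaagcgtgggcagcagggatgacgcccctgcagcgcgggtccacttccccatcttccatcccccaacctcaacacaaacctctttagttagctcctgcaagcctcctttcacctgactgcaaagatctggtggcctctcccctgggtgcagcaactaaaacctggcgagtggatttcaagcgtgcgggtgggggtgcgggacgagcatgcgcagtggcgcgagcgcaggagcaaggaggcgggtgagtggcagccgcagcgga
Anks4b: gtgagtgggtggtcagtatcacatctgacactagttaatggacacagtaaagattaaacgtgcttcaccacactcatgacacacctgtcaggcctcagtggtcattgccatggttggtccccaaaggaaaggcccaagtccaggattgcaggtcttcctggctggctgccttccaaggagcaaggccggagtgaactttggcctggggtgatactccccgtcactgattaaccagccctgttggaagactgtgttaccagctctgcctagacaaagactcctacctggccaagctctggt
Cdhr5: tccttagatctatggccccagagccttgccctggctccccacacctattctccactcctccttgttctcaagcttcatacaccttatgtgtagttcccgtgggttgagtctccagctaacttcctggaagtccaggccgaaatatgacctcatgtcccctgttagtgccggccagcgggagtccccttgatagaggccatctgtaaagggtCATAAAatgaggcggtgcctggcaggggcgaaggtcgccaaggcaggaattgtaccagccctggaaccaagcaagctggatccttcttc
On either strand, TTTATG occurred in 1 of the 8 promoters (Cdhr5) and in 11.9% of 32817 promoters of this length. The HNF4-type motif AAAGTCC, the CDX-type TTTATT and the GATA-type GATAA occurred in 0 of the 8, against 4.21%, 19.6% and 25.4% of all promoters. These counts describe letters in 300 bases and say nothing of a factor's binding. The GC content of the windows was 60.7% for Pls1, 53.0% for Anks4b and 55.0% for Cdhr5, against a median of 52.7% over all promoters.

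Eps8 encodes an actin capping and bundling protein found at microvillus tips. It lies on chromosome 6 of GRCm39 from 137454243 to 137626395 (identifier 13860). Its level ran from 238 to 498 CPM with a median of 344 CPM in NAP libraries, against 110, 154, 171, 161 and 175 CPM in controls 1 to 5. The groups did not overlap. Over all tested genes, 2.13% had every NAP library above every control. The NAP libraries themselves varied, with 498, 408 and 440 CPM in NAP 2, 4 and 5 and 281, 246 and 238 CPM in NAP 1, 3 and 6. Eps8 was thus 2.28-fold higher, a log2 fold change of 1.19 (SE 0.23, edgeR adjusted p = 0.0386).

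Pls1 encodes plastin-1, a bundler of actin filaments in the microvillus core and the terminal web. The gene lies on chromosome 9 from 95634695 to 95727359 (identifier 102502). NAP libraries held 318 to 566 CPM with a median of 490 CPM, and controls 1 to 5 held 213, 244, 316, 240 and 251 CPM. The groups did not overlap, but only just. NAP 1 and 3, at 318 and 329 CPM, lay next to control 3 at 316 CPM, while the other NAP libraries held 474 to 566 CPM. Pls1 was 1.79-fold higher, a log2 fold change of 0.84 (SE 0.20, edgeR adjusted p = 0.0480).

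Vil1, which encodes villin, the other bundler of the set and a protein that can also sever actin, did not pass the test. It lies on chromosome 1 from 74448543 to 74474719. NAP libraries held 683 to 1283 CPM with a median of 1094 CPM, against 512, 1188, 769, 558 and 1260 CPM in controls 1 to 5. The groups overlapped. NAP 2 lay above every control, controls 2 and 5 among the other NAP libraries or above them, and controls 1 and 4 below every NAP library. Its log2 fold change was 0.30 (SE 0.28; edgeR adjusted p = 0.525). It was 0.01 without controls 1 and 4 and 0.81 without controls 2 and 5, neither past the test (edgeR adjusted p = 0.977 and adjusted p = 0.0641). The interval of Usp37 on the opposite strand meets the end of Vil1. Counts of the whole Usp37 gene came to at most 6.32% of those of Vil1, and reads in the overlap were not counted apart.

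Anks4b encodes a scaffold protein with ankyrin repeats and a SAM domain that binds harmonin and myosin-7b at the microvillus tip. The gene lies on chromosome 7 from 119773081 to 119782939 (identifier 72074). Its levels were 115, 94.3, 108, 103, 81.4 and 63.2 CPM in NAP 1 to 6, against 40.3, 52.7, 58.0, 51.9 and 62.2 CPM in controls 1 to 5. Every NAP library lay above every control, NAP 6 by a narrow margin over control 5. Anks4b was 1.77-fold higher, a log2 fold change of 0.83 (SE 0.18, edgeR adjusted p = 0.0420). Eps8 and Anks4b ordered the NAP libraries differently, since NAP 1 and 3 were the highest for Anks4b and among the 3 lowest for Eps8 with NAP 6.

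The other scaffold gene did not pass the test. Ush1c encodes harmonin, a PDZ-domain protein that gathers the cadherin tails, and lies on the same chromosome from 45844774 to 45887984. It held 227, 222, 207, 234, 212 and 179 CPM in NAP 1 to 6, against 146, 410, 231, 108 and 402 CPM in controls 1 to 5. The NAP libraries lay in a narrow band inside the control range. The log2 fold change was −0.28 (SE 0.31; edgeR adjusted p = 0.610). It was −0.67 without controls 1 and 4 and 0.43 without controls 2 and 5 (edgeR adjusted p = 0.0518 and adjusted p = 0.208), so its direction rests on which controls are used. Myo7b, the motor that carries this complex to the tips, lies on chromosome 18 from 32092287 to 32169984. It held 307 to 578 CPM with a median of 453 CPM in NAP libraries, against 277, 385, 305, 268 and 388 CPM in controls 1 to 5. NAP 2, 4 and 5, at 570, 522 and 578 CPM, lay above every control, and NAP 1, 3 and 6 lay within the controls. The log2 fold change was 0.46 (SE 0.22; edgeR adjusted p = 0.219).

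Neither tip-link cadherin passed the test. Cdhr2, on chromosome 13 from 54849276 to 54884475, held 860 to 1742 CPM with a median of 1278 CPM in NAP libraries. Controls 1 to 5 held 507, 1786, 889, 474 and 1962 CPM. Its log2 fold change was 0.17 (SE 0.38; edgeR adjusted p = 0.820). Cdhr5, on chromosome 7 from 140848993 to 140856708, held 578 to 1092 CPM with a median of 973 CPM in NAP libraries, against 482, 1636, 610, 397 and 1685 CPM in controls 1 to 5. Its log2 fold change was −0.07 (SE 0.38; edgeR adjusted p = 0.926). For both cadherins every NAP library lay between the low controls 1 and 4 and the high controls 2 and 5. Without controls 1 and 4 the log2 fold changes of Cdhr2 and Cdhr5 were −0.26 and −0.49, and without controls 2 and 5 they were 1.04 and 0.91. None of these passed in edgeR (adjusted p = 0.560, adjusted p = 0.304, adjusted p = 0.0562 and adjusted p = 0.0512).

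The membrane linkers had positive fold changes that did not pass the test. Ezr encodes ezrin, which binds membrane proteins at one end and actin at the other, and lies on chromosome 17 from 7005530 to 7050179. It held 697 to 1349 CPM with a median of 1121 CPM in NAP libraries, against 656, 842, 796, 610 and 900 CPM in controls 1 to 5. NAP 1, 2, 4 and 5, at 1045, 1349, 1201 and 1196 CPM, lay above every control, while NAP 3 and 6, at 790 and 697 CPM, did not. The log2 fold change was 0.46 (SE 0.22; edgeR adjusted p = 0.217). Myo1a encodes the motor that bridges the actin core to the lateral membrane, and lies on chromosome 10 from 127539306 to 127556809. It held 761, 361, 619, 544, 384 and 413 CPM in NAP 1 to 6, against 287, 538, 408, 339 and 515 CPM in controls 1 to 5. NAP 2 and 5, which were high for Eps8, Ezr and Myo7b, were the lowest NAP libraries for Myo1a. Its log2 fold change was 0.30 (SE 0.25; edgeR adjusted p = 0.484).

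**Figure D2:**
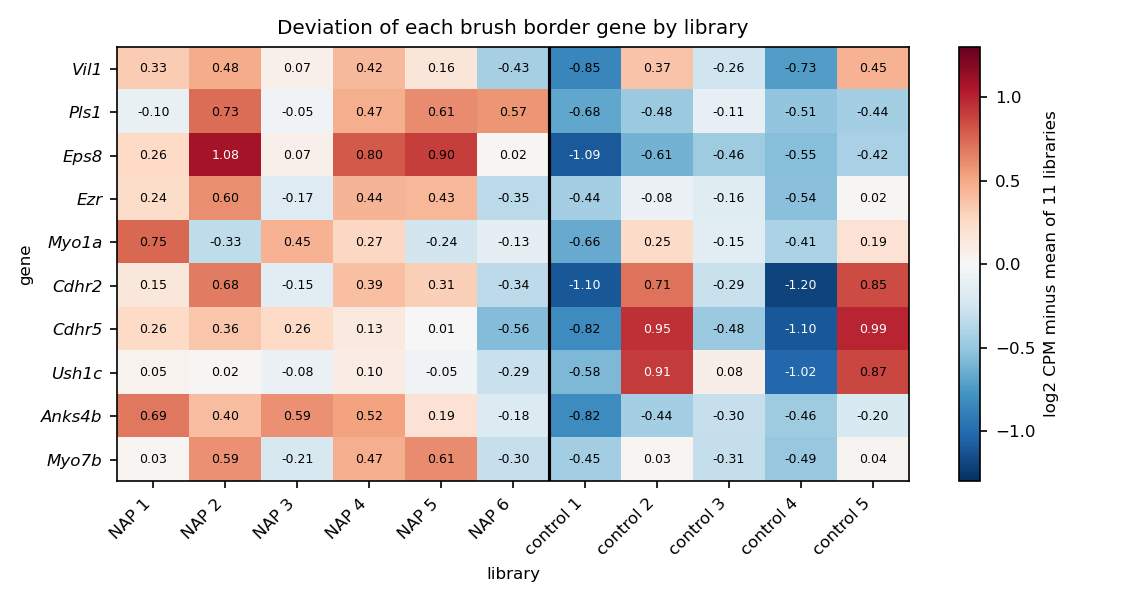
Deviation of log2 CPM from the mean of the 11 libraries (colour and printed value) for each gene (rows) in each library (columns, 6 NAP libraries left of the line and 5 controls right of it). Controls 1 and 4 are the lowest libraries for Cdhr2, at −1.10 and −1.20, and controls 2 and 5 the highest, at 0.71 and 0.85, while Eps8 is below its mean in all 5 controls.

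After the group means were taken out, Vil1, Cdhr2, Cdhr5 and Ush1c varied together over the 11 libraries, with Pearson r of 0.89 to 0.96 between them. Ezr and Myo7b varied with Vil1 (r = 0.80 and r = 0.74) and Cdhr2 (r = 0.77 and r = 0.76), and also with Eps8 (r = 0.84 and r = 0.87). They followed Cdhr5 (r = 0.62 and r = 0.59) and Ush1c (r = 0.60 and r = 0.56) less closely. Eps8 itself had r = 0.57 with Vil1, r = 0.55 with Cdhr2, r = 0.28 with Ush1c and r = −0.17 with Myo1a. Pls1 had r = 0.67 with Eps8 and was nearly unrelated to Vil1, Ush1c and Cdhr5 (r = 0.10, r = 0.09 and r = −0.07). Anks4b had r = 0.68 with Vil1 and r = 0.73 with Myo1a, against r = 0.33 with Eps8 and r = −0.30 with Pls1. These correlations describe 11 libraries that share the uneven controls, and carry no test. In all members but Eps8, Pls1 and Anks4b, as in the summed colonocyte markers, controls 2 and 5 were the highest controls and controls 1 and 4 the lowest. Without controls 1 and 4 the log2 fold change was 0.34 for Ezr, 0.11 for Myo1a and 0.35 for Myo7b, and without controls 2 and 5 it was 0.63, 0.60 and 0.68, none past the test (edgeR adjusted p = 0.0904 to adjusted p = 0.810). Of the 20 colonocyte markers 9 were positive and 1 was called in edgeR, Ceacam1, with 5 at an unadjusted p below 0.05 and 3 higher by DESeq2. Of 15 tested stem cell markers 1 was positive and 0 were called in edgeR, with 2 at an unadjusted p below 0.05 and 0 by DESeq2. Among all 14840 tested genes, 3495 had an unadjusted p below 0.05. The part of these cell types in the member results was not tested. The covariate fit that follows is no such test, since its score comes from the same libraries and includes Ceacam1, called higher here. With a score of colonocyte minus stem cell markers as a covariate, in a fit that called 10.8% of all tested genes higher, Eps8 (log2 fold change 1.08), Pls1 (0.78) and Anks4b (0.80) passed and the other 7 members did not (edgeR adjusted p = 0.00812, adjusted p = 0.0141 and adjusted p = 0.00937).

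**Figure D3:**
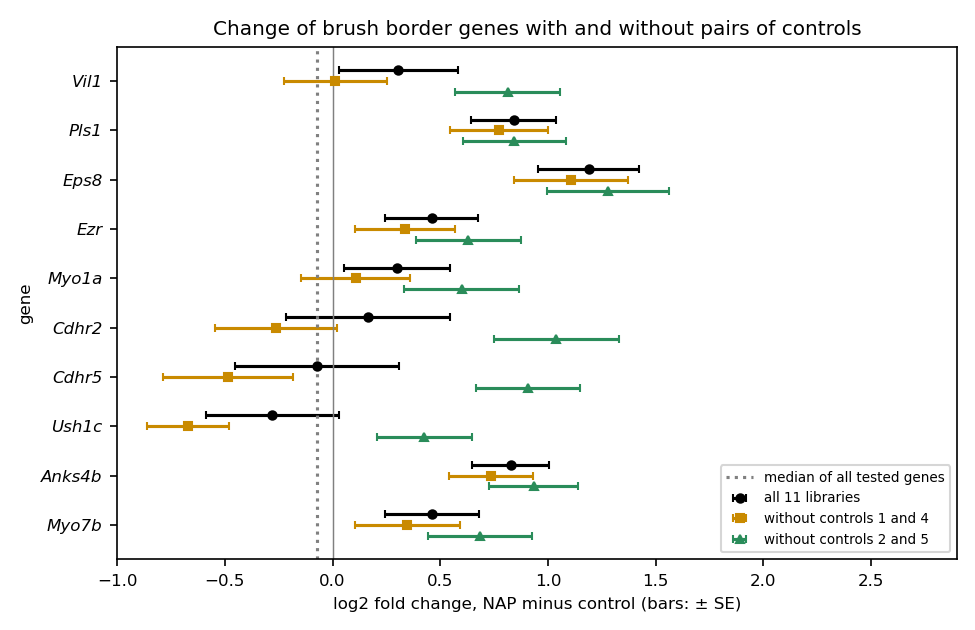
Log2 fold change of each brush border gene, NAP minus control, with bars of ± SE, for all 11 libraries and without controls 1 and 4 or without controls 2 and 5. The dotted line is the median of all tested genes, −0.07. Eps8, Pls1 and Anks4b change little between the 3 fits, whereas Cdhr5 goes to −0.49 in one and to 0.91 in another.

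The coefficient of variation of Ush1c was 9.09% in NAP libraries and 54.4% in controls, and that of Cdhr5 was 20.1% in NAP libraries and 66.8% in controls. Cdhr2 had 25.3% in NAP libraries and 62.9% in controls, and Vil1 had 20.8% in NAP libraries and 40.8% in controls. The other 6 members were more variable in NAP libraries. Eps8 had 31.5% in NAP libraries and 16.9% in controls, and Pls1 23.1% in NAP libraries and 15.1% in controls. Over all tested genes the median was 26.1% in NAP libraries and 34.3% in controls, and 62.8% of genes were more variable in controls. No test was made of these spreads.

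**Figure D4:**
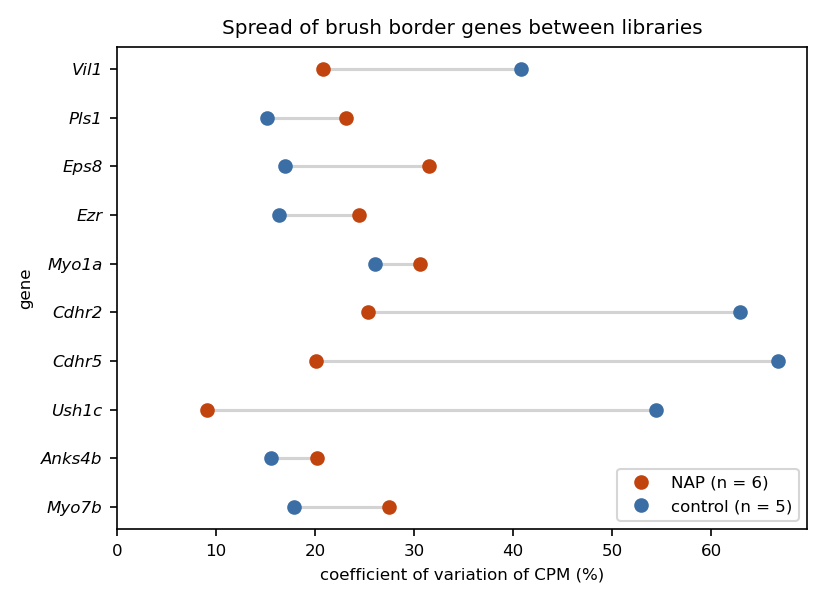
Coefficient of variation of CPM in percent (x axis, starting at 0) over the 6 NAP and the 5 control libraries for each brush border gene. Cdhr2, Cdhr5, Ush1c and Vil1 are more variable in controls, and the other 6 genes in NAP libraries.

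Levels between genes were compared as CPM per kilobase of gene length. In NAP libraries Cdhr5 (346 ± 69.6), Ezr (341 ± 83.1), Vil1 (340 ± 70.6) and Cdhr2 (305 ± 77.3) formed the top of the order and did not differ among themselves beyond the spread (mean ± SD, n = 6). Myo1a followed at 141 ± 43.1 CPM per kilobase, below Cdhr2 in 6 of 6 NAP libraries. Pls1 (71.3 ± 16.5), Myo7b (68.0 ± 18.7), Eps8 (67.5 ± 21.3), Ush1c (53.8 ± 4.89) and Anks4b (46.3 ± 9.38) came last in NAP libraries, each within the spread of the next. In controls the top was again Cdhr5 (364 ± 243), Vil1 (275 ± 112), Cdhr2 (272 ± 171) and Ezr (248 ± 40.3), then Myo1a at 114 ± 29.8 CPM per kilobase (mean ± SD, n = 5), and the first 4 overlapped within their spread. The low end of the controls was ordered Ush1c (65.3 ± 35.5), Myo7b (49.3 ± 8.84), Pls1 (39.8 ± 6.02), Eps8 (29.6 ± 4.99) and Anks4b (26.1 ± 4.06). There Pls1 lay above Eps8 and Eps8 above Anks4b in 5 of 5 controls. By their means the 3 genes that rose were the lowest members in controls, but Myo7b lay above Pls1 in 4 of 5 controls only, and in control 4 Ush1c, at 27.1 CPM per kilobase, lay below Pls1 and Eps8 at 37.8 and 30.8.

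Pairs of members were set against each other within a library, which removes library scaling. Log2 CPM of Eps8 minus Vil1 was −1.62 ± 0.33 in NAP libraries and −2.39 ± 0.49 in controls (mean ± SD), a difference of 0.77. With 462 arrangements of the group labels this gave an exact permutation p = 0.0173, or adjusted p = 0.0346 over the 4 pairs compared (all tests of pairs were two-sided). It lay above every control in 4 of 6 NAP libraries. Anks4b minus Ush1c was −1.21 ± 0.22 in NAP libraries and −2.11 ± 0.75 in controls, a difference of 0.90 (exact permutation p = 0.0173, adjusted p = 0.0346). Control 4, at −1.05, lay inside the NAP range for this pair, and 2 of 6 NAP libraries were above every control. Pls1 minus Vil1 was −1.23 ± 0.50 in NAP libraries and −1.68 ± 0.58 in controls, and its difference of 0.44 did not pass (exact permutation p = 0.197, adjusted p = 0.197). Cdhr5 minus Cdhr2 was −0.45 ± 0.29 in NAP libraries and −0.24 ± 0.18 in controls, and its difference of −0.21 did not pass (exact permutation p = 0.188, adjusted p = 0.197). Eps8 minus Vil1 no longer passed without control 2 or 5 or without NAP 1, 2, 4, 5 or 6 (exact permutation, adjusted p = 0.0635 to adjusted p = 0.0794), and Anks4b minus Ush1c without control 2 or 5 or any 1 NAP library (adjusted p = 0.0529 to adjusted p = 0.0794). Without controls 2 and 5 together the difference was 0.44 for Eps8 minus Vil1 and 0.43 for Anks4b minus Ush1c, and neither passed (exact permutation, adjusted p = 0.214 for both). Without controls 1 and 4 together it was 1.03 and 1.34, and both passed (exact permutation, adjusted p = 0.0238 for both). Each unadjusted exact permutation p was 0.0119 there, the smallest possible with the libraries left. Controls 1 and 4 are the lowest libraries for Vil1 and Ush1c, the genes subtracted. For the pairs, both of these removals were chosen after seeing the data. The pairs were picked with earlier results known, and those that passed over all libraries set a called gene against an uncalled one. Their p-values are thus a description and add no independent support.

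**Figure D5:**
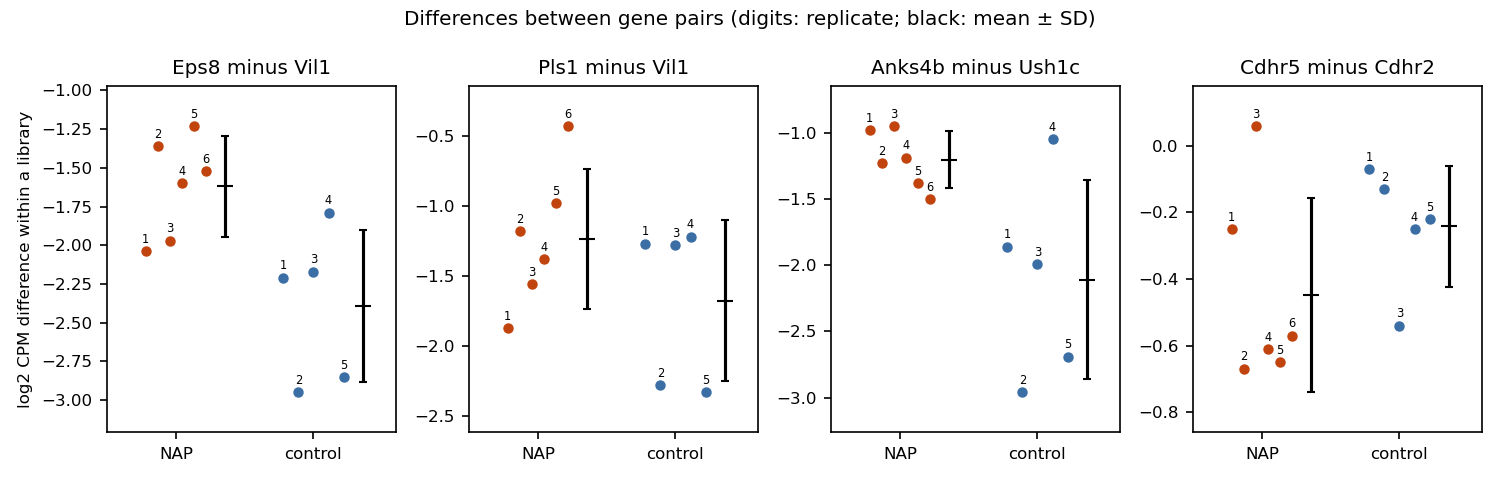
Difference of log2 CPM between 2 genes of the same library (y axes) for the 6 NAP and 5 control libraries, with replicate numbers and the mean ± SD in black. Controls 2 and 5 are the lowest libraries in the panels of Eps8 minus Vil1, at −2.95 and −2.85, and of Anks4b minus Ush1c, at −2.96 and −2.69.

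The calls of Eps8, Pls1 and Anks4b stood close to the threshold and depended on single libraries, although their size did not. When control 1, 2, 3 or 5, or NAP 2, 4 or 5, was left out none of them passed (edgeR adjusted p = 0.0503 to adjusted p = 0.128). Nor did any other gene without control 1, 2 or 5 or NAP 2, 4 or 5, where 0 genes of the whole table were called. Without control 3 the fit called 158 of 15165 genes. Without control 4 or NAP 6, Pls1 did not pass (edgeR adjusted p = 0.0572 and adjusted p = 0.0739). With controls 1 and 4 both left out, or controls 2 and 5, Eps8 and Anks4b passed and Pls1 did not (edgeR adjusted p = 0.0566 and adjusted p = 0.0575), in fits that called 2.82% and 2.71% of genes higher. Leaving out 1 library gave log2 fold changes of 1.07 to 1.29 for Eps8, 0.77 to 0.94 for Pls1 and 0.75 to 0.93 for Anks4b. The transcripts of these genes were also the poorest in G and C among the members, at 47.6%, 42.7% and 44.8%, against 52.8 to 56.6% in the other 7. The libraries differed in base composition, with a rank correlation, across genes, between GC content and a library's deviation of −0.54 to 0.12 in NAP libraries and 0.02 to 0.36 in controls. With the GC trend of each library removed, a fit that called 0.176% of genes higher, the log2 fold change was 1.15 for Eps8, 0.61 for Pls1 and 0.69 for Anks4b, none past the test (edgeR adjusted p = 0.0645, adjusted p = 0.112 and adjusted p = 0.112). The mitochondrial chromosome took 5.17 to 8.08% of counts in NAP libraries and 2.74 to 4.78% in controls, without overlap, so this share cannot be told apart from NAP. All 3 genes were called with that chromosome's genes left out. That fit does not address the difference in share, whose part in the results was not tested.

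Other genes of the microvillus were read from lists, with means ± SD over 6 NAP and 5 control libraries. The lists were chosen with earlier results of these data known. Their counts stand beside 3495 of 14840 tested genes at an unadjusted p below 0.05 and 11.6% called by DESeq2, 856 genes higher and 865 lower. Of 21 tested genes for the actin core and tip, 13 were positive, the median log2 fold change was 0.21 and 0 passed in edgeR, with 8 at an unadjusted p below 0.05 and, by DESeq2, 7 higher and 1 lower. The smallest p-values were those of Wasl, an activator of actin branching, with 308 ± 79.3 CPM in NAP libraries and 174 ± 31.1 CPM in controls (edgeR adjusted p = 0.0566), and of Capza2, a subunit of actin capping protein, with 308 ± 58.0 CPM in NAP libraries and 196 ± 32.3 CPM in controls (edgeR adjusted p = 0.0664). Of 20 tested membrane linkers and other unconventional myosins, 12 were positive with a median of 0.14 and 0 passed in edgeR, with 4 at an unadjusted p below 0.05 and 1 called by DESeq2. Myo10, a myosin of filopodia, held 192 ± 65.4 CPM in NAP libraries and 111 ± 16.1 CPM in controls (edgeR adjusted p = 0.0794). The ezrin kinase gene Slk held 198 ± 21.6 CPM in NAP libraries and 141 ± 35.4 CPM in controls (edgeR adjusted p = 0.132). Of 6 tested partners of the adhesion complex, 4 were positive with a median of 0.16 and 0 passed in edgeR, with 1 at an unadjusted p below 0.05 and 1 called by DESeq2. Whrn, which encodes the PDZ scaffold whirlin, held 18.8 ± 4.05 CPM in NAP libraries and 32.8 ± 9.57 CPM in controls (edgeR adjusted p = 0.0600). The protocadherin gene Pcdh1 held 130 ± 40.7 CPM in NAP libraries and 93.1 ± 11.5 CPM in controls (edgeR adjusted p = 0.238).

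Apical trafficking and polarity genes, some of them mutated in microvillus inclusion disease, were positive in 12 of 21 with a median log2 fold change of 0.10. Lmo7 and Mpp5 were called higher in edgeR and 0 lower, where 1.05% of all tested genes were called higher. In this list, chosen with earlier results known, 8 genes had an unadjusted p below 0.05 and DESeq2 called 5 higher. Lmo7, a LIM and PDZ domain protein of apical junctions, held 753 ± 313 CPM in NAP libraries and 279 ± 63.6 CPM in controls (log2 fold change 1.43, SE 0.30, edgeR adjusted p = 0.0417). Mpp5, the polarity scaffold PALS1, held 137 ± 39.9 CPM in NAP libraries and 69.3 ± 14.1 CPM in controls (log2 fold change 0.98, SE 0.22, edgeR adjusted p = 0.0438). Enzymes and carriers of the brush border membrane were positive in 14 of 21 with a median of 0.39. There 5 had an unadjusted p below 0.05, DESeq2 called 4 higher and 1 passed in edgeR. That gene, the peptide carrier gene Slc15a1, held 128 ± 31.0 CPM in NAP libraries and 36.4 ± 22.5 CPM in controls (edgeR adjusted p = 0.0420). Transcription factors known for brush border genes were positive in 6 of 15 with a median of −0.01, and 0 passed in edgeR, with 3 at an unadjusted p below 0.05 and, by DESeq2, 1 higher and 2 lower. Prdm1, a repressor active in the immature gut, held 34.0 ± 18.9 CPM in NAP libraries and 9.44 ± 4.56 CPM in controls (edgeR adjusted p = 0.0521). The intestinal homeobox gene Cdx1 held 160 ± 61.0 CPM in NAP libraries and 313 ± 92.4 CPM in controls (edgeR adjusted p = 0.0694).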

How the data were processed

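Poly(A)-selected RNA was sequenced from 11 libraries, grouped by their titles. The submitters' processing notes name Trimmomatic 0.39, HISAT2 2.2.1, Subread 2.0.8 (featureCounts) and the build GRCm39. The sources used here give neither the strand setting nor the treatment of multi-mapping reads. The authors deposited whole-number counts per gene and FPKM values of the same genes; the FPKM values served only as an alternative, with pseudocounts of 1 and 0.1.

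All libraries were fitted over the 14840 genes passing filterByExpr, with TMM scaling and the robust quasi-likelihood test of edgeR 4.0.16 (R 4.3.3), Benjamini-Hochberg adjusted at a threshold of 0.05. Standard errors are the log2 fold change over the square root of the test statistic, and log2 CPM used a prior count of 2. Alternatives were other scalings and filters, DESeq2 1.42.0, limma 3.58.1, GC and length trends (lowess, span 0.3), a marker score, a replicate block and left-out libraries. GC content came from the longest GENCODE M21 transcript, matched for 84% of tested genes and all 10 members. Named list genes were those past the test, or else the 2 with the smallest p. One gene among those most like Eps8 is not reported here. The members, lists and pairs were chosen with earlier results of these data known. Tested on simulated data (NAP against control, 14549 genes), the fit called 43 of 100 genes changed by a log2 of 1, 94 of 100 changed by 2 and 4 of 14349 unchanged genes.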

Additional observations from a re-analysis of the deposited data

How the results depend on the processing

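Eps8, Pls1 and Anks4b were all called under RLE or upper quartile scaling, a filter of 1 CPM in 5 libraries, DESeq2, limma on voom or on log2 FPKM, with the mitochondrial chromosome left out and with the marker score as covariate. Of the 10 members, 1 (Eps8) was called with library total scaling and 1 (Eps8) with no filter, against 3. With the GC trend removed, or GC and length trends, 0 were called, and with the length trend alone 2. With both trends removed the log2 fold change of Pls1 was 0.47 (0.49 with the replicate block) against 0.84, while Eps8 had 1.04 and Anks4b 0.82. Leaving out 1 library gave 0 to 3 calls. Over all genes, calls numbered 315, against 41 with library total scaling, 89 with no filter, 1721 with DESeq2, 1480 at a threshold of 0.1, 31 (22 of them higher) with the GC trend removed, 0 (2364 at an unadjusted p below 0.05) with both trends removed, 3239 with the marker score, 1315 without controls 1 and 4, 824 without controls 2 and 5, and 0 to 814 without 1 library. The fits that removed the GC trend tested 12472 genes, and the cause of the lost calls was not tested.

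The deviations of same-numbered libraries correlated at 0.424, 0.341 and 0.3 for numbers 1, 2 and 5 and at −0.0744 and −0.3 for numbers 3 and 4. As not every pair was above 0.1, the numbers were not taken to pair the libraries. Differently numbered libraries were not compared, so these values cannot decide whether the libraries are paired. With a replicate block, in which NAP 6 has no partner, 0 members and 0 genes were called (2903 genes at an unadjusted p below 0.05), with log2 fold changes of 1.25 for Eps8, 0.78 for Pls1 and 0.92 for Anks4b, and 0 members with the block and both trends removed. Exact sign flips over the 5 pairs of that block gave 0.75 for Eps8 minus Vil1 and 0.96 for Anks4b minus Ush1c, both with adjusted p = 0.250; 0.0625 is the smallest unadjusted p they allow. Leaving out 1 library gave 0.63 to 0.92 and 0.69 to 1.17 for these pairs (exact permutation, adjusted p = 0.0190 to adjusted p = 0.0794), 0.28 to 0.57 for Pls1 minus Vil1 and −0.31 to −0.16 for Cdhr5 minus Cdhr2, which passed without NAP 3 (adjusted p = 0.0476). Without controls 2 and 5, an alternative for the pairs chosen after seeing the data, Eps8 minus Vil1 was 0.44, Anks4b minus Ush1c 0.43 and Pls1 minus Vil1 0.02, none past the test.

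Direction turned only for members that were not called. Cdhr5 was positive with limma on voom (0.13), log2 FPKM (0.18 with either pseudocount), the replicate block (0.31, or 0.61 with both trends removed), the GC trend (0.24), the length trend (0.06) or both (0.35) removed and without controls 2 and 5 (0.91); it ran from −0.26 to 0.24 without 1 library. Ush1c turned to 0.15 with the block and trends removed, 0.05 with the GC trend removed and 0.43 without controls 2 and 5. Cdhr2 turned to −0.26 without controls 1 and 4, and ran from −0.02 to 0.47 without 1 library.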

Other observations

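Outside the brush border set, the genes whose log2 CPM followed Eps8 most closely over the 11 libraries, among 9105 genes averaging log2 CPM 3 or more, included Lmo7 (Pearson r = 0.996), the mineralocorticoid receptor gene Nr3c2 (r = 0.986), the nectin-like adhesion gene Pvr (r = 0.982) and Cxadr (r = 0.974), which encodes a junctional adhesion protein. With the group means taken out, r stayed at 0.914 to 0.995 for these 4. Each of them was called higher in edgeR, with log2 fold changes of 0.77 to 1.55 (adjusted p = 0.0386 to adjusted p = 0.0417). The genes closest to Vil1 were a different set. They were the unconventional myosin gene Myo15b (r = 0.986), Prr13 (r = 0.979), the kinase gene Tesk2 (r = 0.978), Tnip1 (r = 0.977), an inhibitor of NF-kB signalling, and the carboxylesterase gene Ces2c (r = 0.969). None of these passed in edgeR, with log2 fold changes of 0.22 to 0.35. Both sets were chosen for their likeness over libraries that share the uneven controls, and no test was made of the correlations. The likeness was measured with the group difference included. Calls among the genes like Eps8, and none among those like Vil1, thus follow in part from that choice and add no support.

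A list of 14 squamous epithelium markers summed to 3.77 to 17.4 CPM in NAP libraries, against 149 and 141 CPM in controls 1 and 4, the controls lowest for Cdhr2 and Vil1, and 7.54 to 17.8 CPM in controls 2, 3 and 5. Of these 14 genes Sprr1b and Sprr3 had 0 counts in every library, and 4 were tested. A list of 12 goblet cell markers summed to 2257 to 5105 CPM in NAP libraries and 3693 to 7751 CPM in controls, one of 13 enteroendocrine markers to 261 to 580 CPM in NAP libraries and 233 to 630 CPM in controls, and one of 11 tuft cell markers to 3.22 to 9.24 CPM in NAP libraries and 4.54 to 15.9 CPM in controls. Small intestinal enterocyte markers summed to 649 to 971 CPM in NAP libraries and 264 to 1066 CPM in controls. In edgeR 0 genes of these 5 lists passed. At an unadjusted p below 0.05 there were 2 squamous, 1 tuft cell and 3 small intestinal genes, against 3495 of all 14840 tested genes. DESeq2 called 2 squamous genes lower and 2 small intestinal genes higher.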
